A study of Mus musculus with 6 samples.

Results

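The Cyp2c genes encode cytochrome P450 monooxygenases, and in the mouse they lie side by side in a single cluster on chromosome 19. In all, 10 symbols of this cluster were followed by name in the count table, which held 24421 gene symbols: Cyp2c29, Cyp2c37, Cyp2c38, Cyp2c39, Cyp2c40, Cyp2c50, Cyp2c54, Cyp2c55, Cyp2c67 and Cyp2c70. All 10 were found. The livers came from male C57BL/6 mice aged 4 months, 3 with a Sesn3 knockout (KO) and 3 wild type (WT), and every mouse of both groups had eaten the same high-fat diet for 4 weeks. By energy it was 20% protein, 40% fat and 40% carbohydrate, with 1.25% cholesterol and 0.5% of the bile salt sodium cholate, and both groups shared it. How the knockout allele was made, and whether the 2 genotypes were littermates, is not given in the sources used here.

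Cyp2c enzymes sit in the endoplasmic reticulum of hepatocytes, where they take electrons from P450 reductase (Por) and cytochrome b5 and oxidise drugs, steroids, bile acids and fatty acids. Several of them turn arachidonic acid into epoxyeicosatrienoic acids, lipid mediators that soluble epoxide hydrolase then inactivates. In liver their transcription depends on hepatocyte factors such as HNF4A and on the xenobiotic receptors CAR (Nr1i3) and PXR (Nr1i2), and several are most abundant in hepatocytes around the central vein.

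Libraries summed to between 20641510 and 24098512 counts in KO and between 18882220 and 20222704 in WT. Sesn3, the targeted gene, was at 0.761, 0.695 and 0.689 CPM (counts per 1000000 reads counted, with TMM scaling factors) in KO replicates 1, 2 and 3 and at 9, 11.6 and 10.4 CPM in WT replicates 1, 2 and 3. The 15 hepatocyte markers tested summed to between 167175 and 194181 CPM in KO and between 149942 and 207993 CPM in WT, and edgeR's quasi-likelihood test called none of them (4 had an unadjusted p under 0.05, and DESeq2 called 4 lower). Summed stellate cell markers did not overlap between the groups, at 1111 to 1399 CPM in KO against 505 to 675 CPM in WT, with 4 of 12 higher (Col1a1, Col1a2, Col3a1 and Dcn) and none lower. Macrophage markers summed to between 3482 and 4088 CPM in KO and between 1421 and 3465 CPM in WT, with 3 of 14 higher (Trem2, Clec4f and Vsig4) and none lower. Cholangiocyte markers summed to between 149 and 173 CPM against 73.0 to 104 CPM, and edgeR called none of 7 (3 had an unadjusted p under 0.05, and DESeq2 called 1 higher). An unadjusted p under 0.05 was common over all genes: Nr1i2, at 0.0487 in edgeR's test, ranked 3295 of 12945 genes tested. Each of the named collagen and macrophage genes, and Dcn, was called in only 1 or 2 of the 6 fits that left out a library, and the collagen genes were not called with no filter on low counts. The part of these cells in the Cyp2c results was not tested. In whole liver, fewer cells of a type and less RNA per cell cannot be told apart.

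The cluster covers 1180 kb of chromosome 19, from 39007019 to 40187333 (GRCm38, the genome of mm10), and the annotation places 14 protein-coding genes there, all of them Cyp2c genes. Each of the 10 has 9 exons in its longest coding transcript. Their coding sequences form blocks of near-identical copies. Cyp2c37, Cyp2c50 and Cyp2c54 share between 95.1% and 96.1% of their coding bases. Cyp2c38 and Cyp2c39 share 94.2%, and Cyp2c29 shares 89.1% and 89.5% with them. Cyp2c67 shares 97.2% with Cyp2c68, 97.7% with Cyp2c69 and 92.3% with Cyp2c40, whose annotated coding sequence is longer. Cyp2c55 and Cyp2c70 have no such copy in the cluster. The likeness is visible in the 60 coding bases that hold the P450 heme signature, the stretch with the cysteine that binds the heme iron. In every one of the 10 genes this stretch spans the junction of exons 8 and 9, for Cyp2c50 at chr19:40111393-40113468 on the plus strand with the intron included. Capitals mark the bases that differ from Cyp2c50.
Cyp2c50: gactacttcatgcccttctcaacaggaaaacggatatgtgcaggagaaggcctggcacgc
Cyp2c37: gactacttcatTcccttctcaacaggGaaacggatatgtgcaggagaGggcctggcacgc
Cyp2c54: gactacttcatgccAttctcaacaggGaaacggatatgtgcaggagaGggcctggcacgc
Cyp2c29: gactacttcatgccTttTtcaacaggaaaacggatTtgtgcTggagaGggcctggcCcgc
Cyp2c38: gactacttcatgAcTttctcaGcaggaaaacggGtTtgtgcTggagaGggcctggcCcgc
Cyp2c39: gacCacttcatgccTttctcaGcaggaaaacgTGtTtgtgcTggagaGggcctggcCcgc
Cyp2c67: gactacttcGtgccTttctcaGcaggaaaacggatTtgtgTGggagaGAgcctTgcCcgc
Cyp2c40: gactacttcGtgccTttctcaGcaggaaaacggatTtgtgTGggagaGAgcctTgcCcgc
Cyp2c55: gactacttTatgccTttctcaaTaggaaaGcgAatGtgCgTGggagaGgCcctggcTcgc
Cyp2c70: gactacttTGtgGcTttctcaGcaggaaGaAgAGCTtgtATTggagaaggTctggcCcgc
Cyp2c37 and Cyp2c54 differ from Cyp2c50 at 3 of the 60 positions, Cyp2c29 at 6, Cyp2c55 at 12 and Cyp2c70 at 16, while Cyp2c67 and Cyp2c40 carry the same 60 bases. A read that lies wholly in a stretch shared by several genes cannot be assigned to 1 of them. Of all 100-base stretches in the longest coding transcript, 44.1% in Cyp2c40, 23.7% in Cyp2c67, 9.40% in Cyp2c50, 7.59% in Cyp2c54 and 4.70% in Cyp2c37 also occur in another gene, against none in Cyp2c29, Cyp2c38, Cyp2c39, Cyp2c55 and Cyp2c70. Of 50-base stretches the share was 72.1% in Cyp2c40, 52.8% in Cyp2c67, 30.7% in Cyp2c50, 30.1% in Cyp2c37, 25.7% in Cyp2c54, 12.0% in Cyp2c39, 7.45% in Cyp2c38, 2.08% in Cyp2c29, 0.514% in Cyp2c55 and 0 in Cyp2c70. Neither the read length nor the treatment of reads with several matches is given in the sources used here, so single values of the near-identical genes are uncertain, and their pooled counts were tested as well.

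**Figure D1:**
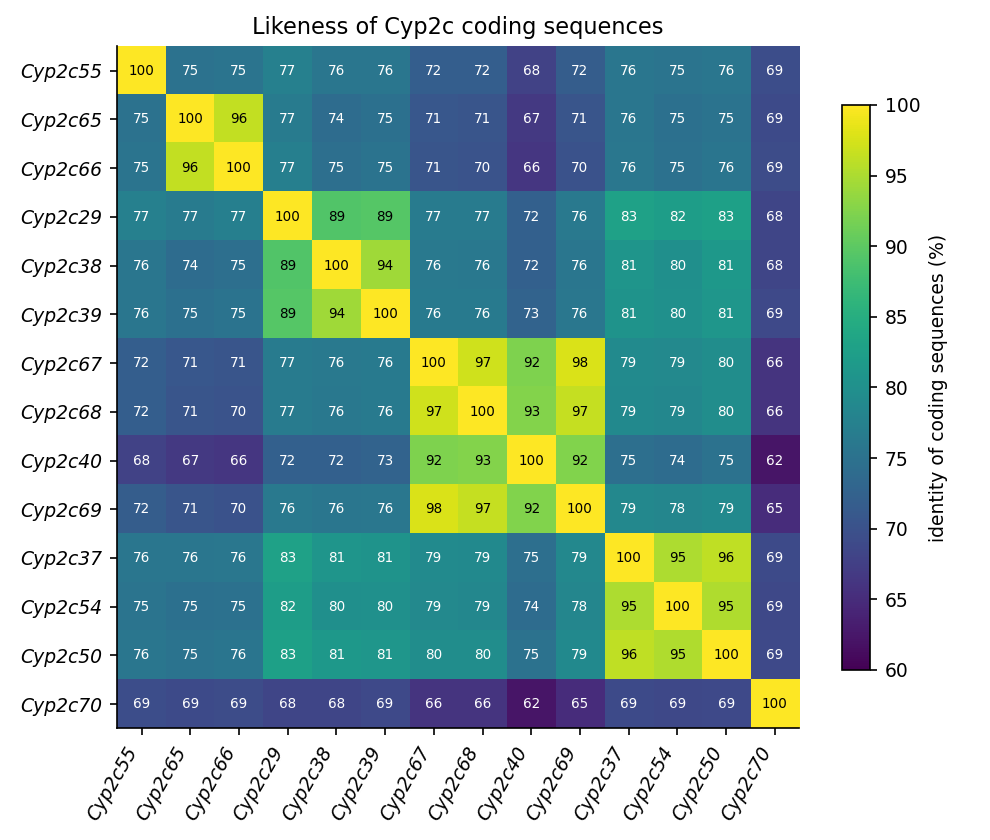
Percent identity of coding sequences between each pair of the protein-coding genes of the chromosome 19 Cyp2c cluster, in their order along the chromosome, with the colour scale from 60 to 100 percent. The blocks of near-identical neighbours stand out, and Cyp2c55 and Cyp2c70, at the ends of the cluster, have no near-identical partner.

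Cyp2c transcript levels in KO livers were set against those in WT livers. Of the 10 genes, 4 were lower in KO (Cyp2c29, Cyp2c37, Cyp2c50 and Cyp2c54) and Cyp2c55 alone was higher, at an adjusted p under 0.05 in edgeR's quasi-likelihood test. Of all 12945 genes tested, 3.58% were lower, 3.36% higher and 6.94% either by the same test, 463 against 435 genes. Scaled by library size only, 258 genes were lower and 707 higher, with the same 4 and 1 Cyp2c counts. All 10 Cyp2c genes passed the filter on low counts, Cyp2c40 through its WT libraries alone. The median log2 fold change of the 10 was -1.07, against 0.00 for all genes tested. In 7 of them, Cyp2c40 included, the 2 genotypes did not overlap, against 33.5% of all genes tested. Without KO replicate 2 only Cyp2c50 and Cyp2c54 remained lower, and without KO replicate 1 Cyp2c37 did as well.

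**Figure D2:**
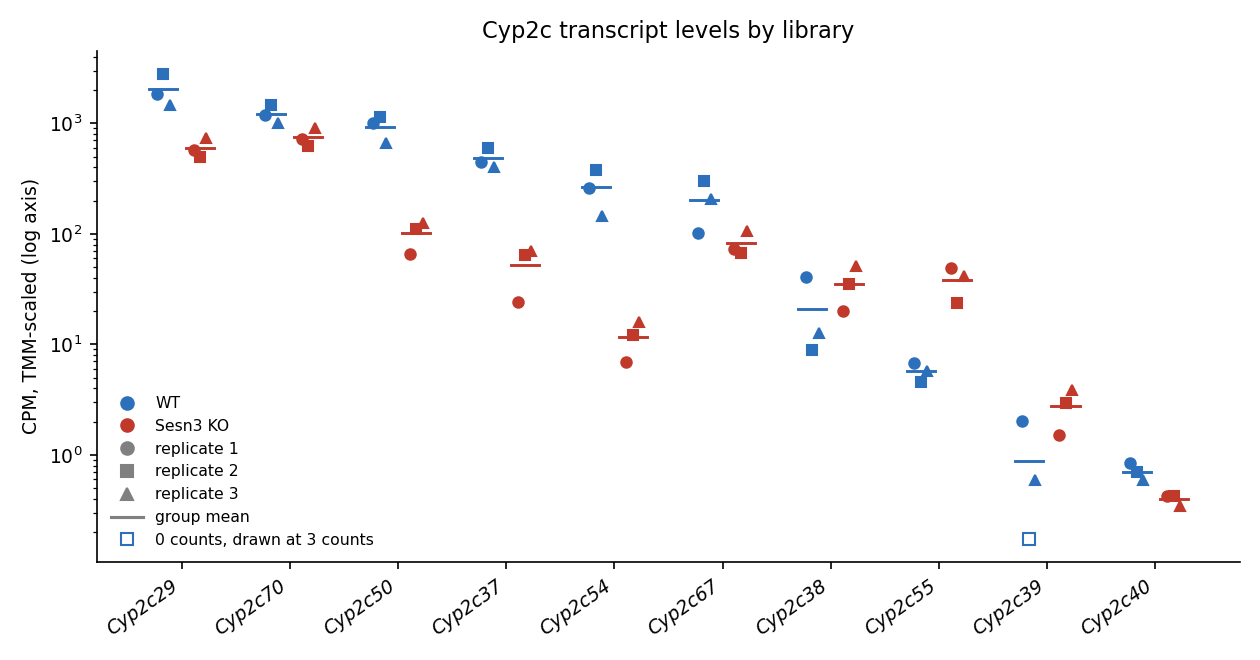
TMM-scaled CPM of the 10 Cyp2c genes on a log axis, 1 point per library, with WT in blue, KO in red, a marker shape per replicate and a line at each group mean (n = 3 per group). Cyp2c29, Cyp2c37, Cyp2c50, Cyp2c54 and Cyp2c70 lie lower in every KO library than in any WT library, Cyp2c55 lies higher, and WT replicate 1 falls within the KO range for Cyp2c38, Cyp2c39 and Cyp2c67.

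Cyp2c37, Cyp2c50 and Cyp2c54 are neighbours at the far end of the cluster and encode arachidonic acid oxygenases of pericentral hepatocytes. They fell most. Cyp2c54 (chr19:40037940-40073827, minus strand) was at 261, 382 and 144 CPM in WT replicates 1, 2 and 3 and at 6.89, 12.2 and 15.9 CPM in KO replicates 1, 2 and 3. The lowest WT library was thus far above the highest KO library. The KO mean of 11.7 ± 4.55 CPM was 22.5-fold below the WT mean of 263 ± 119 CPM (SD, n = 3 each; edgeR adjusted p = 0.00606 for a log2 fold change of -4.49 with SE 0.47).

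Cyp2c50 (chr19:40089688-40113950, plus strand) was at 997, 1137 and 660 CPM in WT and at 66.1, 111 and 125 CPM in KO. It was the third most abundant of the family in WT. The difference was 9.24-fold (edgeR adjusted p = 0.00429 for a log2 fold change of -3.21 with SE 0.32). Cyp2c37 (chr19:39992424-40012243, plus strand), which is also a known target of CAR, was at 447, 604 and 405 CPM in WT and at 24.4, 63.8 and 69.8 CPM in KO. KO replicate 1 was the lowest library for all 3 genes. Cyp2c37 was 9.21-fold lower (edgeR adjusted p = 0.0102 for a log2 fold change of -3.20 with SE 0.41), and leaving out KO replicate 2 ended its call (adjusted p = 0.0570, log2 fold change -3.37). Cyp2c50 and Cyp2c54 passed without each of the 6 libraries in turn.

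Because these 3 genes share long stretches, their counts were also pooled. The pool was at 1706, 2122 and 1209 CPM in WT and at 97.4, 187 and 211 CPM in KO, which is 10.2-fold lower (edgeR adjusted p = 0.00605 for a log2 fold change of -3.35 with SE 0.36). Their sum was thus lower in KO however reads were divided among the 3 copies.

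Cyp2c29, Cyp2c38 and Cyp2c39 are the next block of related genes, and their products are epoxygenases of arachidonic acid. Cyp2c29 (chr19:39269405-39330713, plus strand), a classical target of CAR, was the most abundant member in WT, at 1854, 2793 and 1455 CPM, and stood at 567, 492 and 735 CPM in KO. All KO libraries lay below all WT libraries, and WT replicate 2 was the highest. It fell 3.40-fold (edgeR adjusted p = 0.0181 for a log2 fold change of -1.77 with SE 0.29), and it was no longer called once KO replicate 1 (adjusted p = 0.0644) or KO replicate 2 (0.0954) was left out. The annotated gene overlaps the pseudogene Cyp2c53-ps on the same strand, which had 2, 15 and 2 counts in WT and 0 in each KO library.

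Cyp2c38 (chr19:39389556-39463075, minus strand) did not follow Cyp2c29. It was at 19.9, 34.8 and 50.9 CPM in KO and at 40.6, 8.84 and 12.8 CPM in WT, so that WT replicate 1 lay inside the KO range while the other WT libraries lay below it. The log2 fold change was 0.76 (SE 0.59, edgeR adjusted p = 0.461). With WT replicate 1 left out it was 1.71 (adjusted p = 0.0578). Cyp2c39 (chr19:39510862-39568529, plus strand), whose product also hydroxylates retinoic acid, showed the same arrangement at a far lower level: 36, 77 and 89 counts in KO and 39, 0 and 11 in WT. The 0 in WT replicate 2 allows up to 0.174 CPM, the value of 3 counts there. Its log2 fold change was 1.64 (SE 0.95, edgeR adjusted p = 0.325), and 3.18 without WT replicate 1 (adjusted p = 0.0962). Pooled, the block fell 3.23-fold (edgeR adjusted p = 0.0201 for a log2 fold change of -1.69 with SE 0.29), at 1897, 2802 and 1468 CPM in WT and 589, 530 and 790 CPM in KO, nearly all of it Cyp2c29. Leaving out KO replicate 1, 2 or 3 ended the call of the pool (adjusted p = 0.0702, 0.101 and 0.0503).

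Cyp2c40 and Cyp2c67 belong to the block in the middle of the cluster, with Cyp2c68 and Cyp2c69. Cyp2c67 (chr19:39608842-39649051, minus strand) was at 102, 302 and 207 CPM in WT and at 73.2, 67.2 and 105 CPM in KO. WT replicate 1 lay within the KO range, and the other WT libraries lay well above it. The difference was 2.49-fold and did not pass (edgeR adjusted p = 0.0870 for a log2 fold change of -1.32 with SE 0.38). With WT replicate 1 left out it was -1.63 on the log2 scale and passed (adjusted p = 0.0191), as it did with DESeq2 (adjusted p = 0.00520). Cyp2c68, its neighbour, was at 93.2, 133 and 192 CPM in KO and 106, 104 and 77.6 CPM in WT (edgeR adjusted p = 0.247 for a log2 fold change of 0.54 with SE 0.27). These 2 genes share 97.2% of their coding bases. Cyp2c40 (chr19:39767071-39812814, minus strand), a hydroxylase of arachidonic acid, had between 8 and 16 counts in every library, 0.397 ± 0.0456 CPM in KO and 0.707 ± 0.125 CPM in WT (SD, n = 3 each). Its log2 fold change of -0.82 (SE 0.42) did not pass (edgeR adjusted p = 0.256). The groups did not overlap, but Cyp2c40 passed the filter on low counts through its WT libraries alone, which favours such a gap. The pool of Cyp2c40, Cyp2c67, Cyp2c68 and Cyp2c69 was at 209, 408 and 285 CPM in WT and 167, 201 and 298 CPM in KO. It overlapped between the groups, with a log2 fold change of -0.44 (SE 0.30, edgeR adjusted p = 0.401).

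Cyp2c55, at the near end of the cluster (chr19:39007019-39042693, plus strand), encodes an arachidonic acid hydroxylase that liver induces after activation of CAR or PXR and that the intestine expresses. It was at 48.6, 23.7 and 41.4 CPM in KO and at 6.80, 4.53 and 5.77 CPM in WT. The lowest KO library was above the highest WT library. The KO mean of 37.9 ± 12.8 CPM was 6.63-fold above the WT mean of 5.70 ± 1.14 CPM (SD, n = 3 each; edgeR adjusted p = 0.00612 for a log2 fold change of 2.73 with SE 0.30), and the rise passed without each library in turn. Of 9 listed markers of intestinal epithelium, Cdx1, Sis, Muc2 and Alpi had 0 counts in every library, Cdx2 had 1 count in all, Vil1 had between 1 and 6 per library, and Lgals4 between 1 and 10. Fabp2 and Lgr5, which liver expresses too, were the remaining 2. Lgr5 was lower in KO (log2 fold change -1.13, edgeR adjusted p = 0.0473), a call lost in 5 of the 6 fits that left out a library. The call was also lost with upper-quartile factors, by library size only, with no filter on low counts and with limma-voom. Lgr5 is counted again among the lower pericentral genes below. The 9 markers summed to between 145 and 172 CPM in KO and between 140 and 206 CPM in WT. Nearly all of this sum was Fabp2, since Lgr5 was at 2.14 ± 0.262 CPM in KO and 4.68 ± 1.09 CPM in WT (SD, n = 3 each). Any part of intestinal cells in the Cyp2c55 result was not tested.

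Cyp2c70, at the opposite end (chr19:40153353-40187333, minus strand), hydroxylates chenodeoxycholic acid to muricholic acid and so gives mice their hydrophilic bile acids. It was at 1189, 1450 and 1007 CPM in WT and at 715, 622 and 906 CPM in KO. The groups did not overlap, but the highest KO library came close to the lowest WT library. It was 1.63-fold lower and did not pass (edgeR adjusted p = 0.0962 for a log2 fold change of -0.70 with SE 0.22), while DESeq2 called it (adjusted p = 0.0102).

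**Figure D3:**
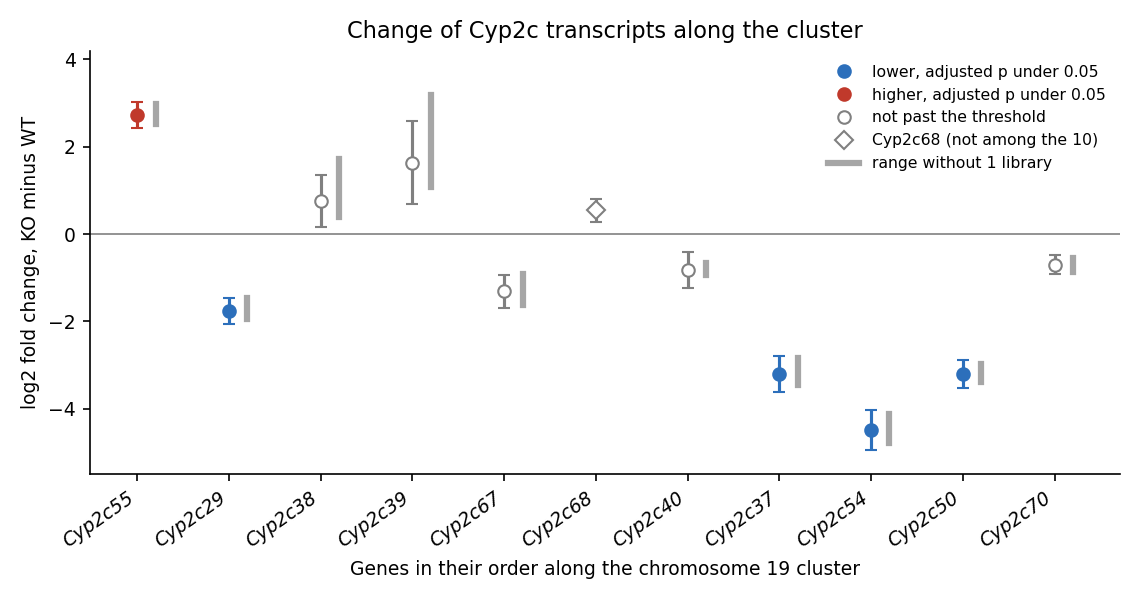
Log2 fold change (KO minus WT) with its standard error for the tested genes of the cluster, in chromosomal order and without distances, with grey bars for the range over the fits without 1 library. Cyp2c37, Cyp2c54 and Cyp2c50 show the lowest values, from -4.49 to -3.20, between Cyp2c40 at -0.82 and Cyp2c70 at -0.70, and Cyp2c55 is at 2.73.

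Levels of different genes were compared per length of the longest coding transcript (RPKM). In WT the order was Cyp2c29 (1141 ± 385 RPKM), Cyp2c70 (708 ± 130), Cyp2c50 (514 ± 135), Cyp2c37 (266 ± 57.5), Cyp2c54 (147 ± 66.5), Cyp2c67 (118 ± 57.8), Cyp2c38 (7.23 ± 6.04), Cyp2c55 (2.86 ± 0.569), Cyp2c39 (0.482 ± 0.578) and Cyp2c40 (0.392 ± 0.0694), all SD with n = 3. The libraries of neighbours in this order overlapped for Cyp2c29 and Cyp2c70, Cyp2c70 and Cyp2c50, Cyp2c54 and Cyp2c67, Cyp2c38 and Cyp2c55, and Cyp2c39 and Cyp2c40. In KO Cyp2c70 stood first, at 435 ± 84.2 RPKM, with Cyp2c29 at 336 ± 69.7 overlapping it. Both were well above Cyp2c50 at 55.6 ± 17.0 and Cyp2c67 at 47.3 ± 11.8, which overlapped each other. Cyp2c55 moved from the eighth place to the sixth, at 19.01 ± 6.43 RPKM, and Cyp2c54 from the fifth place to the eighth, at 6.54 ± 2.55. In KO the libraries overlapped for Cyp2c37 and Cyp2c55, Cyp2c55 and Cyp2c38, and Cyp2c38 and Cyp2c54, so these places are not resolved.

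Summed over the 10 genes, the level was 4901, 6681 and 3897 CPM in WT and 1524, 1430 and 2053 CPM in KO. The WT mean was 3.09 times the KO mean, and no KO library came near the lowest WT library. Cyp2c29 held 38.98 ± 2.45% of this sum in WT and 35.8 ± 1.41% in KO (SD, n = 3 each). Cyp2c70 held 23.9 ± 2.09% in WT and 44.8 ± 1.85% in KO. Cyp2c50 held 18.1 ± 1.94% and 6.07 ± 1.71%, Cyp2c37 9.52 ± 0.752% and 3.15 ± 1.45%, and Cyp2c54 4.92 ± 1.07% and 0.694 ± 0.213%. In KO the P450 that makes muricholic acid thus gave the largest part of the Cyp2c counts, where in WT it was Cyp2c29.

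**Figure D4:**
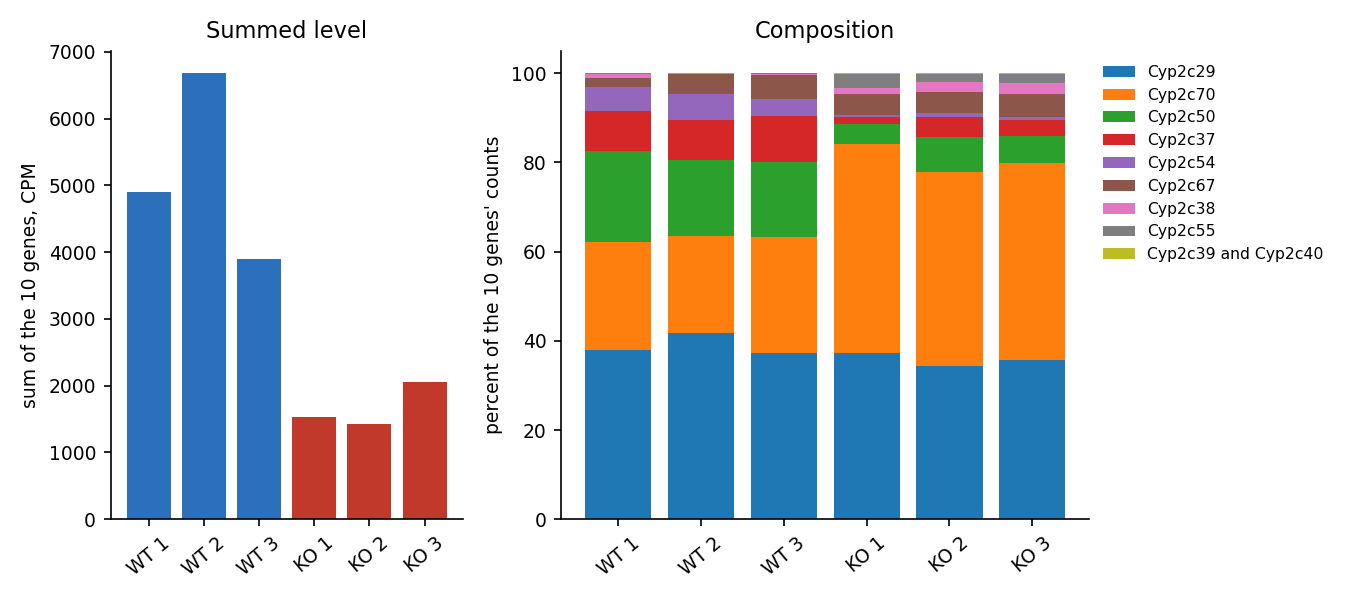
Sum of the 10 Cyp2c genes in each library in CPM (bars from 0, left) and the percentage of that sum's counts held by each gene (stacked bars, right). The 3 WT bars reach from 3897 to 6681 CPM and the 3 KO bars from 1430 to 2053 CPM, and the Cyp2c70 share is larger in each KO library than in any WT library.

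The other Cyp2c symbols of the table did not pass. Cyp2c44, the symbol that the annotation lists as Cyp2c23, lies outside the cluster at chr19:44005022-44029208 and was at 202 ± 17.8 CPM in KO and 336 ± 163 CPM in WT (SD, n = 3 each; edgeR adjusted p = 0.205 for a log2 fold change of -0.74 with SE 0.32). Cyp2c65, Cyp2c66, Cyp2c69 and Cyp2c53-ps had too few counts for the test. Cyp2c65 and Cyp2c66, known from the intestine, had at most 2 counts in any library. Unrelated genes beside the cluster showed no call: Hells, 36.0 kb before it, had a log2 fold change of 0.46 (SE 0.60, edgeR adjusted p = 0.668), and Pdlim1, 33.8 kb behind it, had 0.05 (SE 0.13, adjusted p = 0.854). Of 21 tested genes in a wider list of flanking genes 2 were higher, the immune cell adaptors Pik3ap1 and Blnk, and none was lower. Blnk was called in only 1 of the 6 fits that left out a library.

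Promoter sequences from RefSeq (GRCm38.p6) were found for 9 of the 10 genes, all but Cyp2c54. The 250 bases before each start were searched on both strands for 7 short motifs, none of which contains another. The HNF4 element CAAAGTNCA occurred in 5 of the 9 genes, Cyp2c37, Cyp2c40, Cyp2c50, Cyp2c67 and Cyp2c70, and in 1.19% of 32851 promoter windows of the table. The TATA box TATAAA occurred in 5 of 9 (12.4% of all windows), the nuclear receptor half-site AGGTCA in 3 (14.0%), the FOXA element TGTTTNC in 3 (17.8%), the C/EBP element TTGCNNAA in 2 (9.56%), the HNF1 half-site GTTAAT in 1 (6.43%) and the STAT5 element TTCNNNGAA in 0 (7.02%). Cyp2c39 had windows from chr19:39347096 and from chr19:39510572, and only the former, far from the annotated gene, holds AGGTCA. Matches were counted in all 250 bases, also where annotated transcripts cover them. The TATA matches lay 19 to 40 bases before the start, in or running into such bases. The windows of Cyp2c37 and Cyp2c50 share 84.3% of their bases. Those of Cyp2c67 and Cyp2c40 hold nearly the same stretch around the HNF4 element. The motif counts are thus not independent of each other. The windows are placed by annotated starts, and in Cyp2c67 and its copies the same CAAAGTCCA lies at different distances from the start. It is 125 bases before it in Cyp2c67, 77 in Cyp2c68, 75 in Cyp2c69 and 45 in Cyp2c40. Aligned end to end, the window of Cyp2c67 shares 63.1% with that of Cyp2c68, 62.0% with Cyp2c69 and 47.9% with Cyp2c40. Because these windows are shifted against each other, the values do not show that the promoters differ. All 5 genes with the HNF4 letters had negative log2 fold changes, and of these Cyp2c37 and Cyp2c50 were called. Cyp2c67 (-1.32), Cyp2c40 (-0.82) and Cyp2c70 (-0.70) did not pass. Without the letters in this window, Cyp2c29 fell (-1.77), while Cyp2c38 (0.76), Cyp2c39 (1.64) and Cyp2c55 (2.73) had positive values. Any part of the element in these changes was not tested. The following 6 windows are shown because some hold the element and others do not, each without bases that an annotated exon covers: Cyp2c37 at chr19:39992174-39992423 (plus strand), Cyp2c50 at chr19:40089429-40089678 (plus), Cyp2c67 at chr19:39649080-39649292 (minus), Cyp2c70 at chr19:40187334-40187536 (minus), Cyp2c29 at chr19:39286835-39287043 (plus) and Cyp2c55 at chr19:39006769-39006939 (plus). Capitals mark the HNF4 element.
Cyp2c37: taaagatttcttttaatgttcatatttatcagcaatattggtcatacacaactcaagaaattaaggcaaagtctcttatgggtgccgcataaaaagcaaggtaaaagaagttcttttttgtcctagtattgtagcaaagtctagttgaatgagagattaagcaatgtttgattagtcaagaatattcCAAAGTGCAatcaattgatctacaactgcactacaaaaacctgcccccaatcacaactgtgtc
Cyp2c50: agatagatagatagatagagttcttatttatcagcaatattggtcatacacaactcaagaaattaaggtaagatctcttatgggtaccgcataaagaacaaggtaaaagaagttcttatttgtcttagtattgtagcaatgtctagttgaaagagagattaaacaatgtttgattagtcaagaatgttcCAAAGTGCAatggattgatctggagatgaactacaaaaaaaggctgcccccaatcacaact
Cyp2c67: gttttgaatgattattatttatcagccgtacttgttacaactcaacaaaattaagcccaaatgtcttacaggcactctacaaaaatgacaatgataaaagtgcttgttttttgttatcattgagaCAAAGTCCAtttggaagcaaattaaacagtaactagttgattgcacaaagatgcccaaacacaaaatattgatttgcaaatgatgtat
Cyp2c70: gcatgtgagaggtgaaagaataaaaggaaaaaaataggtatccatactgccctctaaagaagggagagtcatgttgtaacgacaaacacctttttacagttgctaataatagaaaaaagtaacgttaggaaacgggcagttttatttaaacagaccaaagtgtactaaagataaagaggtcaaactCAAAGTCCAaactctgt
Cyp2c29: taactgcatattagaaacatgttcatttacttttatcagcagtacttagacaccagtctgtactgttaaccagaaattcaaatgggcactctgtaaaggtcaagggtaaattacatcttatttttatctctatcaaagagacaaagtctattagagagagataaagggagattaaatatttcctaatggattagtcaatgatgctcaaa
Cyp2c55: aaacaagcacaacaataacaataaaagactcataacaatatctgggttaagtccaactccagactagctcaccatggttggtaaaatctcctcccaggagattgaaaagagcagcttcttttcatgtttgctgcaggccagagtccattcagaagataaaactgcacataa
Cyp2c37 and Cyp2c50 carry CAAAGTGCA 63 and 61 bases before the start, Cyp2c70 carries CAAAGTCCA at 64 and Cyp2c67 at 125. A match of letters does not show that a factor binds there.

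Among the factors that are known to control Cyp2c transcription, none of 20 tested passed in either direction with edgeR, while 7 of them had an unadjusted p under 0.05, DESeq2 called 5 lower, and edgeR called 1 higher without KO replicate 1 or by library size only. Nr1i3, which encodes CAR, was at 20.0 ± 9.43 CPM in KO and 42.4 ± 12.2 CPM in WT (SD, n = 3 each; edgeR adjusted p = 0.141 for a log2 fold change of -1.08 with SE 0.39). Nr1i2, which encodes PXR, was at 73.4 ± 12.3 and 58.26 ± 1.396 CPM (adjusted p = 0.191), and Hnf4a at 528 ± 24.8 and 581 ± 138 CPM (adjusted p = 0.698). By unadjusted p (0.0487 in edgeR's test) Nr1i2 ranked 3295 of all 12945 genes tested. An unadjusted p under 0.05 was thus common over all genes. Of 26 tested genes that CAR or PXR is known to induce, 4 rose and 2 fell, with a median log2 fold change of 0.04. Those that rose were the aldo-keto reductase Akr1b7 (log2 fold change 5.06), the exporter Abcc4 (2.14), Cyp2b10 (2.24) and Cyp2a4 (4.04), and those that fell were the carboxylesterase Ces2a (-1.39) and Cyp1a2 (-1.54). Akr1b7 and Abcc4 passed without each library, and DESeq2 called 6 lower. Without KO replicate 2 Ces2a, Cyp1a2, Cyp2b10 and Cyp2a4 missed the threshold (adjusted p of up to 0.0855 over the 6 fits), and Cyp2b10 and Cyp2a4 also did without KO replicate 3 or WT replicate 3. Cyp2a4 was not called by limma-voom either.

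**Figure D5:**
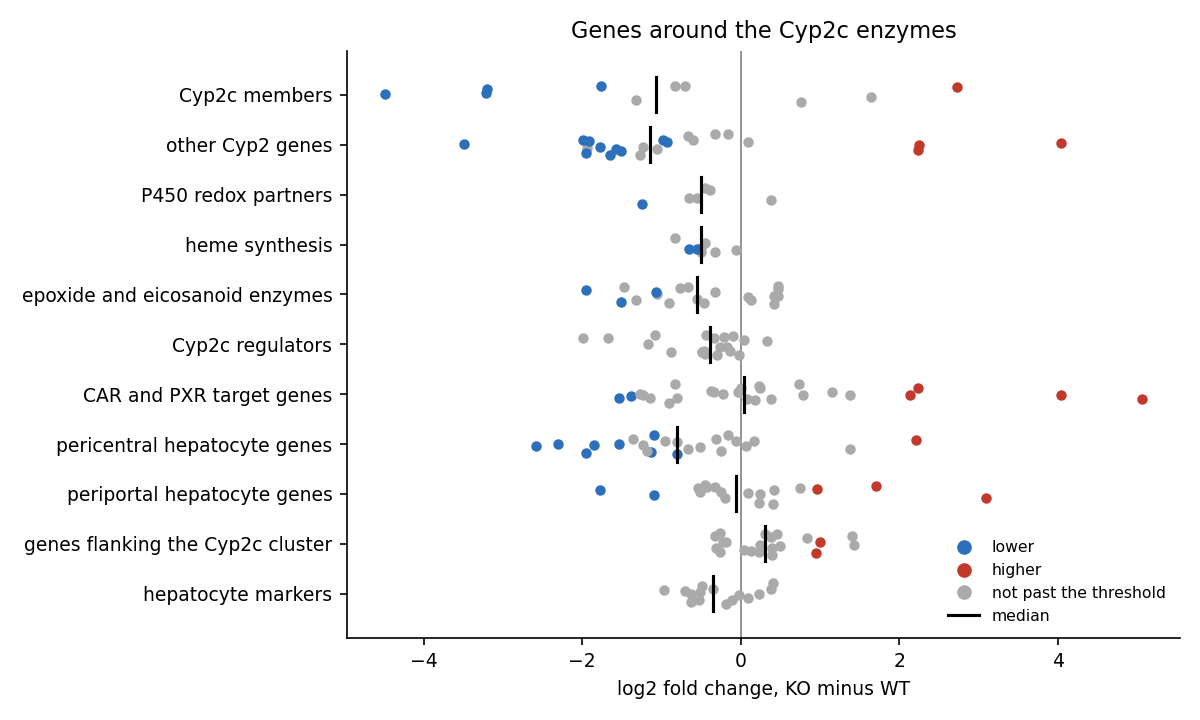
Log2 fold changes (KO minus WT) of the tested genes in the Cyp2c set and in lists of genes related to it, 1 point per gene, blue where lower and red where higher at an edgeR adjusted p under 0.05, with a line at each list's median. The Cyp2c genes and the other Cyp2 genes have medians of -1.07 and -1.14 and hold points in both colours.

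Por, the electron donor, was at 821 ± 401 CPM in KO and 628 ± 34.0 CPM in WT (SD, n = 3 each; edgeR adjusted p = 0.561 for a log2 fold change of 0.39 with SE 0.38). Of the 6 redox partners 5 had an unadjusted p under 0.05, and at the adjusted threshold only Cyb5b, the cytochrome b5 of the outer mitochondrial membrane, fell (edgeR adjusted p = 0.0109 for a log2 fold change of -1.25 with SE 0.17), a call that ended when KO replicate 2 or 3 was left out (highest adjusted p 0.0659). Cyb5a, the cytochrome b5 of the endoplasmic reticulum, had a log2 fold change of -0.55 (adjusted p = 0.187), Cyb5r3 -0.45 (0.0873), Pgrmc1 -0.66 (0.0613) and Pgrmc2 -0.39 (0.0865). By unadjusted p (0.0468 in edgeR's test) Cyb5a ranked 3241 of all 12945 genes tested. Alad, an early enzyme of heme synthesis, was 1 of 8 genes tested in the list of that pathway, and it alone does not describe the list. Alad fell by 0.65 on the log2 scale (edgeR adjusted p = 0.0320). Its call ended when any 1 of the 6 libraries was left out (highest adjusted p 0.145) and by library size only.

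In the list of enzymes of arachidonic acid epoxides and other eicosanoids 3 of 19 tested genes fell and none rose (median log2 fold change -0.55). They were Cyp2j5, an epoxygenase outside the Cyp2c cluster (182 ± 27.7 against 515 ± 114 CPM, SD, n = 3 each; log2 fold change -1.51, edgeR adjusted p = 0.0112), Ephx2, the soluble epoxide hydrolase (456 ± 126 against 954 ± 143 CPM; log2 fold change -1.06, adjusted p = 0.0460), and the hydroxylase Cyp4f14 (log2 fold change -1.95, adjusted p = 0.0385). The epoxygenases Cyp2j6 and Cyp2j9 were not called (log2 fold changes -0.32 and -1.05, adjusted p = 0.133 and 0.207). Leaving out KO replicate 2 ended the call of Cyp2j5 (adjusted p = 0.0661), and Ephx2 and Cyp4f14 were each called in 1 of the 6 fits that left out a library (highest adjusted p 0.154 and 0.119). Cyp4f14 was also not called by library size only or with no filter on low counts.

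Of 22 tested Cyp2 genes outside the Cyp2c subfamily 10 were lower and 3 higher, with a median log2 fold change of -1.14. Those with the smallest p among the lower genes were Cyp2d40 (log2 fold change -1.99), Cyp2f2 (-1.77), Cyp2j5, Cyp2d9 (-1.91) and Cyp2d13 (-1.57), and the higher ones were Cyp2b10, Cyp2a4 and Cyp2a22 (2.25). Without KO replicate 1 the lower genes numbered 4 and the higher ones 3, without KO replicate 2 the lower genes numbered 1 and the higher ones 0, without KO replicate 3 they numbered 4 and 0, and without WT replicate 3 they numbered 5 and 0. With limma-voom only 1 of the higher genes was called, and Cyp2a4 and Cyp2a22 were not. Over all genes, 463 were lower and 435 higher with all libraries. In the same 4 fits without a library, those lower numbered 151, 53, 131 and 160, and those higher 144, 48, 130 and 132. Cyp2d and Cyp2a genes also have near-identical copies.

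Cyp2c29, Cyp2c37, Cyp2c50 and Cyp2c54 are known from pericentral hepatocytes, and of 23 other tested pericentral genes 8 were lower and 1 higher (median log2 fold change -0.80). Their sum was between 5205 and 8253 CPM in KO and between 14556 and 17747 CPM in WT. A large part of it was Cyp2e1, at 2129 ± 1055 CPM in KO and 8225 ± 1907 CPM in WT (SD, n = 3 each; log2 fold change -1.95, edgeR adjusted p = 0.0385). Rgn, regucalcin, fell to 216 ± 56.6 CPM, against 1063 ± 178 CPM in WT (SD, n = 3 each; log2 fold change -2.30, edgeR adjusted p = 0.00496), Slc1a2, a glutamate transporter, by 2.58 on the log2 scale and Glul, the glutamine synthetase, by 1.85, and these 3 passed without each library. Without KO replicate 1, 2 or 3 the lower genes numbered 4, 3 and 5, and without WT replicate 1 or 3 they numbered 5 and 4. Slc1a4, the higher gene, was called only in the fits without WT replicate 1 or 2. Of 18 periportal genes 3 were higher and 2 lower, Cyp2f2 (log2 fold change -1.77) and Pigr (-1.10), with a median of -0.06. Cyp2f2 was not called without KO replicate 2, and Pigr in none of the 6 fits that left out a library. Sums of the 18 genes overlapped between the groups, but most of each was Alb, at 76210 ± 8099 CPM in KO and 71749 ± 25196 CPM in WT (SD, n = 3 each). Sex-biased genes, which growth hormone controls, moved as well. Of 20 tested genes higher in male liver 18 were lower (median log2 fold change -3.71), and of 10 tested genes higher in female liver 5 were higher (2.26). Without KO replicate 1, 2 or 3 the male-biased genes that were lower numbered 9, 4 and 6, and without WT replicate 3 they numbered 12. The female-biased genes that were higher numbered 1 without KO replicate 2 or WT replicate 3 and 2 without KO replicate 3. Of all genes tested, 3.58% were lower and 3.36% higher with all libraries. Without KO replicate 1, 2 or 3 or WT replicate 3, all genes called lower fell from 463 to 151, 53, 131 and 160. Those called higher fell from 435 to 144, 48, 130 and 132. The part of the pericentral and sex-biased genes in the Cyp2c result was not tested.

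Over the 6 libraries, the log2 CPM of Cyp2c29 was most like that of Sntg2, Aifm1, Cnot8, Mccc1 and Galnt4 among genes outside the family, and that of Cyp2c55 most like Syn1, Tmem17, Sept9, Ptpn9 and Adcy1, with Pearson's r between 0.993 and 0.998 as a description. The points share the 2 groups, which stand apart for both genes. Within the family Cyp2c37, Cyp2c50 and Cyp2c54 kept the same order of KO libraries, with replicate 1 lowest and replicate 3 highest. Cyp2c38, Cyp2c39, Cyp2c44 and Cyp2c68 had this order too, as did Por and Ephx2 outside the family, so it is not particular to that block. Cyp2c55 had its highest KO level in replicate 1.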

How the data were processed

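Liver RNA of 3 KO and 3 WT mice was measured by RNA sequencing. The authors deposited whole-number read counts per gene symbol, not normalized, 1 column per library. The labels' protocols name Trizol for the RNA and TruSeq chemistry for the libraries, with an input of 1 µg. Per the submitters' processing notes, the tools were STAR 2.5, featureCounts, Subread 1.5.3 and edgeR 3.20.8 and the build was mm10. What annotation, strand setting and treatment of reads with several matches were used is not given in the sources used here, so overlapping genes and near-identical copies are uncertain.

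Libraries were grouped by the labelled genotype and numbered in accession order. These numbers pair no samples. The labels say only that they are separate samples, so p-values measure the spread between these samples. No library repeated another of its group: chi-square over degrees of freedom was between 21.5 and 134. Floors cover counting error only.

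The test was that of edgeR 4.0.16, run in R 4.3.3 (filterByExpr with a minimum count of 10 and a minimum total of 15, TMM factors, robust quasi-likelihood F-test, two-sided), with p-values adjusted by Benjamini-Hochberg over all 12945 tested genes and called under 0.05. Standard errors are the log2 fold change over the root of F. CPM are counts per 1000000, scaled by TMM factors, and RPKM are those per kilobase. With 3 libraries a group, an exact permutation test cannot go below 0.10. Positions, lengths and coding sequences are from GENCODE mouse release 21, aligned with Biopython 1.88. Other settings were scaling by RLE, by upper quartiles or by library size only, testing without a filter or with 1 CPM required in 3 libraries, DESeq2 1.42.0, limma-voom (limma 3.58.1), a dispersion without robust shrinkage, and each library left out in turn. Scripts were tested on simulated data. The 10 genes and all lists were chosen with earlier results of these data known. Named were the 10 genes, Sesn3, the other Cyp2c genes, up to 4 called genes per list by smallest p (5 each way for other Cyp2 genes), all tested genes of lists of 8 or fewer (1 result of these lists is not reported here), and the 5 genes most like Cyp2c29 and Cyp2c55. Named after their values were seen were Nr1i3, Nr1i2, Hnf4a, Hells, Pdlim1, Slc1a4, Cyp2e1, Alb, Cyp2j6, Cyp2j9 and the intestinal markers at or near 0. Figures were drawn with matplotlib 3.10.9.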

Additional observations from a re-analysis of the deposited data

How the results depend on the processing

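Each Cyp2c result was recomputed under 8 other settings and without each of the 6 libraries. No Cyp2c gene changed direction. Cyp2c40 has no value under the filter of 1 CPM. Of the 139 recomputed values of the 10 genes, 133 kept their side of the threshold, 3 lost it and 3 gained it. The 4 lower genes and the single higher gene were called under every setting that kept all libraries, and DESeq2 called 6 lower. Without 1 library the lower genes numbered 2 to 5, with 2 without KO replicate 2. The pooled Cyp2c29, Cyp2c38 and Cyp2c39 had a log2 fold change of between -1.88 and -1.40 over those fits and lost its call when KO replicate 1, 2 or 3 was left out. Of all genes, 435 were higher and 463 lower, with 707 and 258 by library size only, which shifts the median log2 fold change of all genes to 0.21, and 921 and 1061 by DESeq2. Without 1 library they ranged from 48 to 504 higher and from 53 to 475 lower. The cause was not tested beyond these values. Uros, not called, went from -0.06 to 0.14 by library size only, and ranged from -0.19 to 0.11 without 1 library (0.11 without KO replicate 1, 0.05 without WT replicate 3). Krt7, not called, ranged from -0.23 (without WT replicate 2) to 0.82. With the length of all exons together, an alternative chosen after seeing the data, 8 of 10 genes kept their place in the KO order of levels. No paired analysis was possible because the labels give no replicate numbers. Depth limits Cyp2c39 and Cyp2c40 most, with at most 89 and 16 counts per library.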
